A study of Mus musculus with 11 samples.

Results

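Hepatocyte identity rests on a small group of transcription factors that bind one another's genes as well as the genes of liver function, and 10 of them were followed from the fetal to the adult mouse liver. They are Hnf4a, Foxa1, Foxa2, Foxa3, Cebpa, Cebpb, Prox1, Onecut1, Gata4 and Hhex. They were chosen by name from the gene column of the array files, control spots left out, and every probe of each gene was taken, which gave 19 of 41174 probes and 10 of 27962 gene names. All 10 genes were among the 16702 genes tested.

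The 11 arrays had 2 colours, with the liver RNA of each sample in Cy5. Every array carried the same purchased RNA, from livers of normal adult mice, in Cy3 as its reference. The groups were embryonic day 14 (called E14.5, 3 arrays), embryonic day 18 (E18.5, 3 arrays), postnatal day 5 (P5, 2 arrays, replicates 2 and 3) and postnatal day 56 (P56, 3 arrays). No label names a treatment or a mutation, the labels call the arrays of a group biological replicates, the methods name C57BL/6 mice as the source of the embryonic livers from which cells were isolated, the strain of the other livers and the sex are not given in the sources used here, and no dyes were swapped. The source label says liver, while the cell type label says hepatoblasts at E14.5, immature hepatocytes at E18.5 and hepatocytes afterwards, and the RNA protocol speaks of whole livers and also of cells purified at both embryonic stages. Which of these the embryonic RNA came from could not be settled here. All 11 erythroid marker genes were well above background on every array of E14.5, E18.5 and P5, where their mean log2 ratio to adult liver was 2.51 to 3.42, and all 7 hepatocyte marker genes were well above background on all 11 arrays. Spots well above background in Cy5 numbered 16790 to 25718 of 43379 per array, lowest on P56 replicate 2, and replicates correlated across genes with r of 0.969 to 0.99 at the embryonic stages, 0.901 at P5 and 0.827 to 0.937 at P56. The number of arrays limits the precision.

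The factors belong to several protein families. HNF4α is a nuclear receptor that binds DNA as a homodimer and controls much of hepatocyte metabolism. The FOXA proteins are winged helix factors that open compacted chromatin in the endoderm before liver genes are switched on, and the C/EBP proteins are leucine zipper factors of energy metabolism and of the acute phase response. HHEX, PROX1 and ONECUT1 (also called HNF6) are homeodomain factors needed for the growth of the liver bud, for the migration of hepatoblasts and for the development of bile ducts, and GATA4 is a zinc finger factor of the early endoderm and of the mesenchyme and sinusoidal endothelium of the liver.

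Because the factors are known to regulate each other, the bases before their gene starts were searched for short words bound by liver factors. RefSeq (assembly GRCm38.p6) gave 13 starts for 9 of the genes, and the 250 bases before each were read on both strands for 6 such words. The word of the HNF1 factors was GTTAAT, and that of the FOXA factors was TGTTTAC. C/EBP factors were represented by TTGCNNAA, the ONECUT factors by ATCAAT and HNF4 by CAAAGTCC. The word of the GATA factors was AGATAA. Of these 13 windows, 5 held at least 1 word. The share of all mouse windows with at least 1 of the 6 words was not counted, and the share for each word is given below. The 3 stretches shown are those of Hnf4a, which has 2 starts known as P2 (upstream) and P1 (used in adult hepatocytes), and of Foxa1, the one window with the word of its own family. Each is the 150 bases that end at the base before the start, read 5′ to 3′ on the strand of the gene, with matches in capitals. The Hnf4a stretches are chr2:163506707-163506856 (P2) and chr2:163547005-163547154 (P1) on the plus strand, and that of Foxa1 is chr12:57546112-57546261 on the minus strand.
Hnf4a before the P2 start: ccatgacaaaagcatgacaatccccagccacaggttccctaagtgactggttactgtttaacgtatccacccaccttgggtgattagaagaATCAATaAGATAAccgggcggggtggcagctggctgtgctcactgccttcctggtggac
Hnf4a before the P1 start: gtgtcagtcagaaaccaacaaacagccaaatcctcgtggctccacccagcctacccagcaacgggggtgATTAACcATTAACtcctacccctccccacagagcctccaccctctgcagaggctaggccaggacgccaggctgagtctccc
Foxa1 before its start: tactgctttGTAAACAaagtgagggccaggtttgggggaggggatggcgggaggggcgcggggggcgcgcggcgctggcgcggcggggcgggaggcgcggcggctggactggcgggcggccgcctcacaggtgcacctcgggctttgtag
The P2 stretch of Hnf4a held an ONECUT word (bases -59 to -54, counted back from the start) and a GATA word (-52 to -47), which did not overlap. The P1 stretch held the HNF1 word, read on the other strand, at -81 to -76 and again at -74 to -69. Foxa1 held the FOXA word on the other strand at -141 to -135. The other matches lay in windows of Foxa2, where a start held a GATA and an HNF1 word and another held an ONECUT word, and no window of the factors held the C/EBP or HNF4 word. Among 32851 windows of the same length before mouse genes, 6.43% held the HNF1 word, 6.72% the ONECUT word, 9.99% the GATA word, 3.17% the FOXA word, 9.56% the C/EBP word and 1.2% the HNF4 word. These are matches of letters and not measured binding sites, and the arrays did not measure which start was used.

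The arrays read each gene through probes of 60 bases, and 7 of the 10 genes had more than 1 probe. Their positions are those of the array files (build mm7), and the annotation of that build was not used here. The 5 probes shown are given because other probes of the same genes read different changes. They are those of Hnf4a (chr2:163293456-163293515), Cebpa (chr7:32010056-32010115), Cebpb (chr2:167482463-167482522), Hhex (chr19:37137914-37137973) and Onecut1 (chr9:74927941-74928000), all on the plus strand.
Hnf4a probe: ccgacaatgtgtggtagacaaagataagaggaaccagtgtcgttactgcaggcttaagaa
Cebpa probe: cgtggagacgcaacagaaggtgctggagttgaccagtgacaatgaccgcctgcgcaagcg
Cebpb probe: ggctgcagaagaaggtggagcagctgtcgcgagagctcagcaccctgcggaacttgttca
Hhex probe: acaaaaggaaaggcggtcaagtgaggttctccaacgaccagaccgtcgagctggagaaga
Onecut1 probe: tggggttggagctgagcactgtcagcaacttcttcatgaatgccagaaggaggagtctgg
For Onecut1 this was the brightest probe. In the other 4 genes a brighter probe, at a higher coordinate, stood for the gene. The standing probes of Cebpa (chr7:32011212-32011271), Cebpb (chr2:167483001-167483059), Hhex (chr19:37141162-37141221) and Hnf4a (chr2:163313228-163313287) were on the plus strand. Those of Foxa1 (chr12:55476083-55476142), Foxa2 (chr2:147783819-147783878), Foxa3 (chr7:16696078-16696137), Gata4 (chr14:58062775-58062796, as far as the file places it) and Prox1 (chr1:189651079-189651138) were on the minus strand. Of the 10 probes that stood for the genes, 3 (Hnf4a, Cebpb and Prox1) held the polyadenylation word AATAAA, and their GC content was 33.3% to 53.3%.

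Values are log2 ratios of liver over adult reference, so that -1 is a level at which Cy5 was 1 unit of log2 below the reference, and differences between stages are differences of these ratios. The comparison of E18.5 with E14.5 covered the interval in which the cell type label changes from hepatoblasts to immature hepatocytes. Whether this RNA came from whole livers or from such cells was not settled. Of the 10 factors, 8 were higher at E18.5 and none was lower, by a limma adjusted p under 0.05, while 47.3% of all genes tested were called, 24.6% higher and 22.8% lower. The 8 were Cebpa, Onecut1, Foxa2, Prox1, Cebpb, Hnf4a, Hhex and Foxa3, with rises of 2.31 to 0.97 on the log2 scale, and Foxa1 and Gata4 did not pass the test. The median difference over the 10 factors was 1.5, beside -0.01 over all genes tested. In liver RNA, fewer cells of a type and less RNA per cell cannot be told apart. The 7 hepatocyte markers moved the same way over this interval (7 of 7 higher, median difference 4.34), and their part in the values of the factors was not tested.

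**Figure D1:**
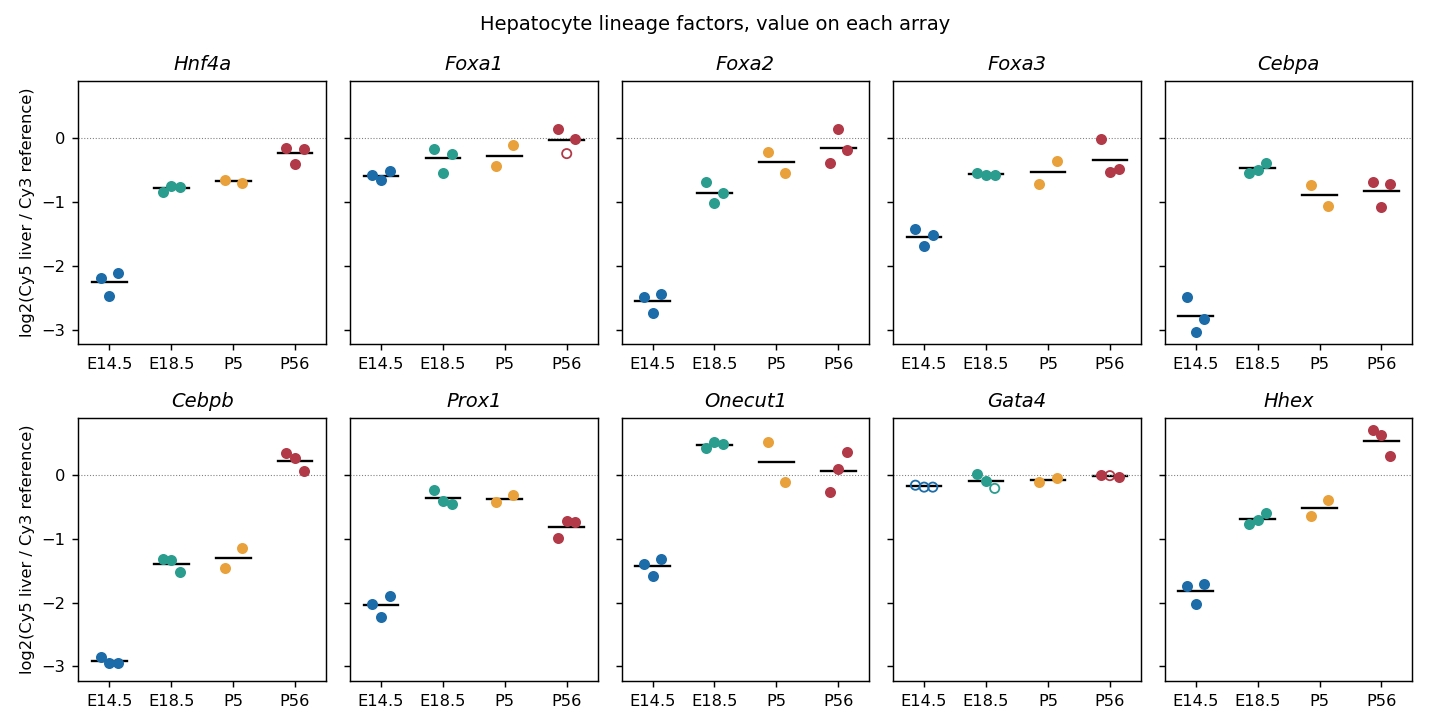
Each panel plots 1 factor, with the stage on the x axis and log2(Cy5 liver / Cy3 adult reference) of the probe that stood for the gene on the y axis. Each point is 1 array, the bar is the mean of the stage, open points were not well above background in Cy5, and the dotted line marks the reference. In 8 panels all 3 E14.5 points lie below all other points, while in the panels of Foxa1 and Gata4 E14.5 overlaps with E18.5, with E14.5 means of -0.59 and -0.18. The share of all genes separated in this way was not counted, and 47.3% of genes tested were called for E18.5 against E14.5.

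Hnf4a was low at E14.5, rose before birth and rose again after P5. Its log2 ratios were -2.19, -2.47 and -2.11 on the E14.5 arrays, -0.84, -0.75 and -0.77 at E18.5, -0.65 and -0.7 on the P5 arrays, then -0.15, -0.4 and -0.16 at P56. No 2 stages overlapped, and the 4 stage means rose in the order of age. E18.5 was 1.47 (SE 0.11) above E14.5, a 2.77-fold rise (adjusted p = 7.8e-07, limma). P5 differed from E18.5 by 0.11 (adjusted p = 0.61). P56 was 0.44 (SE 0.12) above P5 and 2.02 (SE 0.11) above E14.5 (adjusted p = 0.013 and 1.5e-08, limma). The smaller of these steps was the less stable one. P56 against P5 was 0.46 (adjusted p = 0.05, not called) without P5 replicate 2 and 0.46 (adjusted p = 0.062) with the scan as a block, and it turned to -0.35 when arrays were centred on their median, a setting that moved the median of all genes to -0.47.

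By the single probe of each gene, the FOXA genes did not move alike. Foxa2 had the widest course of the 3, with log2 ratios of -2.49, -2.74 and -2.44 at E14.5, -0.68, -1.02 and -0.86 at E18.5, -0.21 and -0.54 on the P5 arrays, then -0.39, 0.14 and -0.19 at P56. The E14.5 and E18.5 arrays were apart from each other and from the later ones, and P5 and P56 overlapped. Foxa2 rose by 1.70 (SE 0.15) from E14.5 to E18.5 (adjusted p = 3.2e-06, limma), a 3.25-fold change. P5 lay 0.48 above E18.5, with no overlap of the arrays, but the adjusted p was 0.083, and without P56 replicate 2, which enters the shared estimate of the spread, it was 0.048. P56 was 0.71 (SE 0.15) above E18.5 (adjusted p = 0.0015, limma). The Foxa2 probe was printed on 10 spots of each array, and 7 of its spot values were left out as outliers.

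Foxa3, the family member best known from adult hepatocytes, showed a smaller rise in 1 step. Its log2 ratios were -1.42, -1.69 and -1.51 at E14.5, -0.55, -0.57 and -0.58 at E18.5, -0.71 and -0.35 on the P5 arrays, then -0.01, -0.53 and -0.48 at P56. From E14.5 to E18.5 it rose by 0.97 (SE 0.14, adjusted p = 1.8e-04, limma), or 1.96-fold, and the 3 later stages did not differ by more than 0.22 from each other in their means, with no difference past the threshold.

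Foxa1 was close to the adult reference throughout. Its log2 ratios were -0.58, -0.65 and -0.52 at E14.5, -0.17, -0.54 and -0.24 at E18.5, -0.44 and -0.11 on the P5 arrays, then 0.15, -0.24 and -0.01 at P56. Each stage overlapped with the next, and E14.5 and P56 did not overlap. E18.5 against E14.5 was 0.27 (95% interval -0.03 to 0.56, adjusted p = 0.13), and P56 against E14.5 was 0.56 (SE 0.14, adjusted p = 0.0029, limma). This gene has 1 dim probe, well above background on 10 of 11 arrays. The difference between P56 and E14.5 was 0.99 with the scanner software's processed signals and it was not called with median centring (0.17, adjusted p = 0.32), in the Cy5 channel alone (0.23, adjusted p = 0.24) or in the authors' table (0.95, adjusted p = 0.094).

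Of the C/EBP genes, Cebpa made its rise before birth by its brightest probe, and Cebpb rose in 2 steps. The other Cebpa probe, described below, was highest at P56, and the values that follow are those of the brightest. The log2 ratios of Cebpa were -2.49, -3.04 and -2.83 at E14.5, -0.55, -0.49 and -0.38 at E18.5, -0.73 and -1.06 on the P5 arrays, then -0.69, -1.08 and -0.72 at P56. The E18.5 arrays were the highest and did not overlap with those of any other stage. The rise to E18.5 was 2.31 (SE 0.15, adjusted p = 2.7e-07, limma), or 4.97-fold, the largest among the brightest probes over that interval, while as means over probes Cebpa rose by 1.46 and Onecut1 by 2.32. The later decline was not past the threshold. P5 against E18.5 was -0.42 (95% interval -0.80 to -0.04, adjusted p = 0.13), and P56 against E18.5 was -0.35 (adjusted p = 0.063), which fell under the threshold without E14.5 replicate 1 (adjusted p = 0.041) or without P56 replicate 1 (-0.42, adjusted p = 0.047).

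Cebpb had log2 ratios of -2.86, -2.94 and -2.95 at E14.5, -1.31, -1.34 and -1.52 at E18.5, -1.45 and -1.15 on the P5 arrays, then 0.34, 0.26 and 0.07 at P56. E18.5 and P5 overlapped and lay apart from both end stages. It rose by 1.52 (SE 0.11, adjusted p = 5.4e-07, limma) to E18.5, by 0.09 (adjusted p = 0.66) to P5, and by 1.52 (SE 0.12, adjusted p = 2.2e-06, limma) to P56. From E14.5 to P56 the difference was 3.14 (SE 0.11), or 8.80-fold (adjusted p = 4.8e-10, limma), the largest of the 10 factors. P56 against P5 stayed above 0 under every alternative run, from 0.93 with median centring to 1.67 without P5 replicate 3, and it missed the threshold only in the methods' t-test (adjusted p = 0.057, the highest over the alternatives).

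Among the homeodomain factors, Hhex followed the course of Cebpb. Its log2 ratios were -1.74, -2.02 and -1.71 at E14.5, -0.77, -0.7 and -0.6 at E18.5, -0.65 and -0.39 on the P5 arrays, then 0.71, 0.62 and 0.29 at P56. E18.5 and P5 overlapped, and the P56 arrays were all above the reference. Hhex rose by 1.13 (SE 0.13, adjusted p = 2.7e-05, limma) to E18.5 and by 1.06 (SE 0.15, adjusted p = 1.3e-04, limma) from P5 to P56, which made 2.36 (5.15-fold) over the whole course. With median centring the second step was 0.37 (adjusted p = 0.2), or 0.84 above the shifted median of all genes.

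Prox1 rose before birth and was the only factor called lower in any of the 6 comparisons of stages. Its log2 ratios were -2.02, -2.22 and -1.89 at E14.5, -0.23, -0.41 and -0.45 at E18.5, -0.43 and -0.31 on the P5 arrays, then -0.98, -0.72 and -0.74 at P56. E18.5 and P5 overlapped, and the P56 arrays lay between them and E14.5. It rose by 1.68 (SE 0.11, adjusted p = 3.1e-07, limma) to E18.5, or 3.20-fold, and from P5 to P56 it fell by 0.44 (SE 0.13, adjusted p = 0.014, limma). The fall depended on the processing and on 1 array. It was -0.38 (adjusted p = 0.071) without P5 replicate 3, -0.42 (adjusted p = 0.069) with the processed signals, -0.21 (adjusted p = 0.3) in the Cy5 channel alone and -0.1 (adjusted p = 0.46) as the mean over the 3 probes. The probe that stood for Prox1 carries an accession with no match in the RefSeq table, while both dimmer probes matched Prox1.

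Onecut1 reached its highest mean at E18.5. Its log2 ratios were -1.4, -1.58 and -1.32 at E14.5, 0.42, 0.51 and 0.49 at E18.5, 0.51 and -0.11 on the P5 arrays, then -0.26, 0.1 and 0.36 at P56. All E14.5 arrays lay below the rest, and the later stages overlapped except E18.5 and P56. The rise to E18.5 was 1.91 (SE 0.17, adjusted p = 3.4e-06, limma), or 3.75-fold. P56 against E18.5 was -0.41 (95% interval -0.79 to -0.03, adjusted p = 0.055), and this fell under the threshold in 7 of 26 alternatives.

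Gata4 was near the limit of these arrays. Its brighter probe read -0.16, -0.19 and -0.19 at E14.5, 0.01, -0.09 and -0.21 at E18.5, -0.11 and -0.05 on the P5 arrays, then 0, -0.01 and -0.03 at P56, and it was not well above background in Cy5 on any E14.5 array. P56, where 2 of 3 arrays measured it, differed from E14.5 by a fitted 0.16 (adjusted p = 0.11), and the E14.5 value is only a bound. The other probe, printed on 10 spots, read 0.25, 0.34 and 0.25 at E14.5, 0.19, 0.14 and 0.15 at E18.5, 0.2 and -0.01 on the P5 arrays, then -0.04, -0.06 and -0.1 at P56, where it was not well above background on any array. By that probe the Cy5 level was at least 1.27-fold higher at E14.5 than at P56, taking as the P56 level on each array the lowest signal of any probe well above background, or the probe's own if higher (difference -0.35, adjusted p = 0.0032, limma), so the 2 probes ran opposite ways. In the authors' table P56 against E14.5 was -1.47. A level or direction for Gata4 was not settled by these data.

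**Figure D2:**
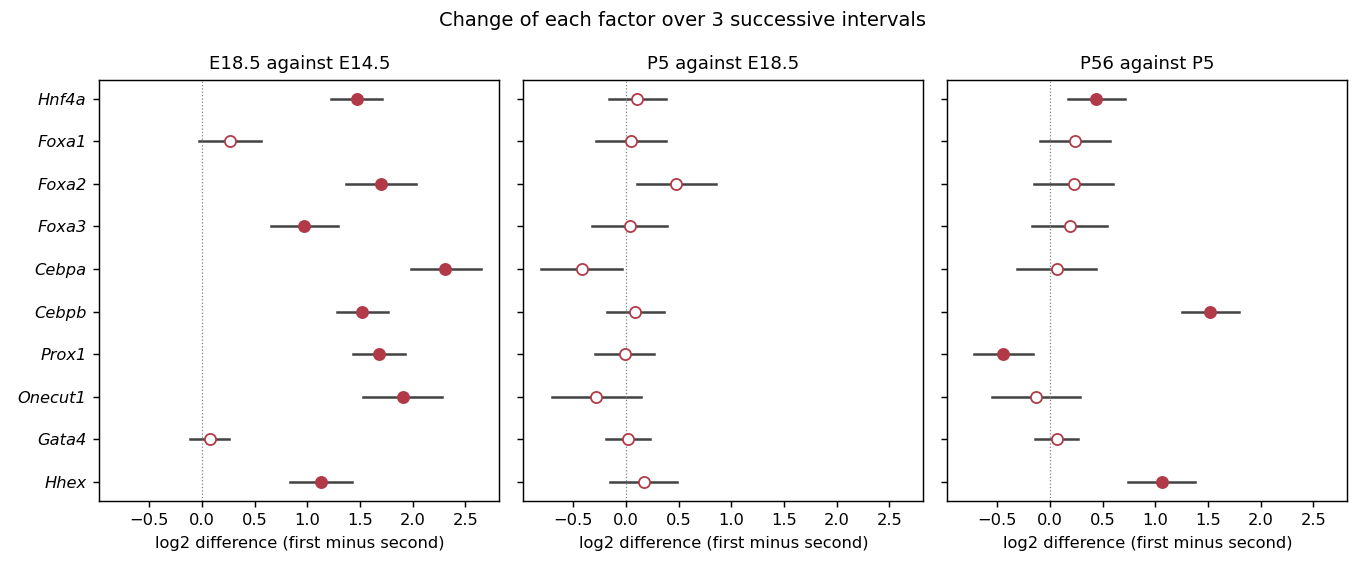
Each panel gives 1 interval between successive stages, with the log2 difference (first stage minus second) on the x axis and the 10 factors on the y axis. Points are limma differences, lines are 95% intervals, and filled points passed an adjusted p of 0.05. In the first interval 8 filled points lie between 0.97 and 2.31, in the second none is filled, and in the third Hnf4a, Cebpb and Hhex lie to the right of 0 and Prox1 to the left.

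No factor was called around birth by its brightest probe. For P5 against E18.5, none of the 10 factors passed the limma threshold, beside 13.7% of all genes (7.32% higher and 6.4% lower). Of the 10, 2 (Foxa2 and Cebpa) had an unadjusted limma p under 0.05, beside 4856 of 16702 genes. The methods' t-test gave no factor by either count, beside 61 genes after adjustment and 3466 at an unadjusted p under 0.05. The differences ran from -0.42 to 0.48, with a median of 0.04, and P5 had only 2 arrays, which lay in different scans. Their intervals do not show that levels were equal, since that of Foxa2 ran from 0.11 to 0.86 and that of Cebpa from -0.80 to -0.04. From P5 to P56, 3 factors were higher (Hnf4a, Cebpb and Hhex) and Prox1 was lower, beside 20.9% and 24.7% of all genes (45.6% in either direction). The methods' t-test called none of the 10 in this comparison after adjustment and 4 at an unadjusted p under 0.05, beside 298 and 5575 of 16702 genes. With median centring, Cebpb alone was higher and Foxa2, Foxa3, Cebpa, Prox1 and Onecut1 were lower. Under that setting the share of higher genes among all genes called fell from 45.7% to 6.8%, and relative to the shifted median Foxa2 moved by -0.05, Foxa3 by -0.21, Cebpa by -0.32, Onecut1 by -0.56 and Prox1 by -0.88.

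Over the longer spans, 9 factors (all but Gata4) were higher at P56 than at E14.5, and none was lower, beside 36.1% and 34.8% of all genes (70.9% in either direction), and the median difference over the 10 was 1.73. P5 was above E14.5 in 8 factors and below it in none, beside 24.9% and 24.1% of genes (49% in either direction), and Foxa1 and Gata4 were not called. Against E18.5, P56 was higher for Hnf4a, Foxa2, Cebpb and Hhex and lower for Prox1, beside 31.2% and 33.6% of genes (64.8% in either direction), while with median centring Hnf4a was at -0.14 and Foxa2 at 0.1, and neither was called. The lower Prox1 was not called in the Cy5 channel alone (-0.1, adjusted p = 0.58), in the authors' table (-0.05, adjusted p = 0.89) or as the mean over probes (0.01, adjusted p = 0.96). These comparisons share arrays with those above. With the processed signals P56 against E14.5 also passed the threshold for Gata4, and with median centring Foxa1 (0.17) and Foxa3 (0.36) no longer did.

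The E14.5 arrays shared 1 scan with E18.5 replicate 1, and the other E18.5 arrays were in another. Within the shared scan, E18.5 replicate 1 exceeded the E14.5 mean by 1.41 for Hnf4a, 2.24 for Cebpa, 1.60 for Cebpb, 1.87 for Foxa2, 0.99 for Foxa3, 1.81 for Prox1, 1.86 for Onecut1 and 1.05 for Hhex. P5 replicate 3 shared a scan with the 3 P56 arrays, and within it P56 was higher by 1.37 for Cebpb, 0.93 for Hhex and 0.46 for Hnf4a and lower for Prox1 (-0.50). No scan held both E18.5 and P5 arrays, so scan and stage cannot be told apart there.

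Probes of the same gene differed in the size of a change. For Hnf4a, E18.5 lay 1.47 above E14.5 by the brightest probe, 0.34 (adjusted p = 0.041, limma) by the printed probe, which was well above background on 1 of 3 E14.5 arrays, and 0.11 (adjusted p = 0.53) by the third. From P5 to P56 the 3 probes read 0.44, 0.48 and 0.41, all past the threshold. In these main values the probes differed before birth and were close after P5. Processed signals, which subtract background without the added offset, read 1.72, 1.87 and 0.60 for E18.5 against E14.5, of which the 1.87 rests on E14.5 values near background. For P56 against P5 the processed signals read 0.53, 1.35 and 0.84 in the same order, so the probes were not close under that setting. The Hhex probes differed in both steps. The printed one read 0.21 (adjusted p = 0.13) against 1.13 before birth, 0.52 against 1.06 after P5 and 0.89 against 2.36 over the whole course. With processed signals these pairs were 0.77 and 1.43, 1.62 and 0.99, and 2.42 and 2.56.

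The Cebpa probes disagreed about the time after birth. The printed Cebpa probe read -1.48, -2.04 and -2.2 at E14.5, -1.5, -1.26 and -1.16 at E18.5, -1.29 and -0.81 on the P5 arrays, then -0.61, -0.57 and -0.5 at P56. Its E14.5 and E18.5 arrays overlapped, and its P56 arrays were the highest, whereas the brightest Cebpa probe was highest at E18.5. P56 against E18.5 was 0.75 (adjusted p = 0.003, limma) by the printed probe and -0.35 (adjusted p = 0.062) by the brightest, and with processed signals the pair still differed in sign (0.94 and -0.35). Both probes matched the Cebpa accession and lie within 1216 bases. Both probes of Cebpb rose in both steps, by 1.52 and 0.85 before birth and by 1.52 and 0.77 after P5.

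Onecut1 and Prox1 had probes that differed by more. The second Onecut1 probe (chr9:74891140-74891199), whose accession has no RefSeq match, read -0.63, -0.47 and -0.5 at E14.5, 2.21, 2.22 and 2.15 at E18.5, 0.99 and 0.19 on the P5 arrays, then 0.24, 0.15 and 0.69 at P56. It rose by 2.72 (adjusted p = 2.9e-07, limma) and then fell by 1.61 (SE 0.21, adjusted p = 5.2e-04, limma) from E18.5 to P5, an interval in which the brightest probe read -0.28 (adjusted p = 0.38). The stretch from the first to the last base of the 2 probes spans 36861 bases on mm7, more than the 27728 bases of the gene in RefSeq, and in the main values this probe was not used for Onecut1. As a mean over both probes, Onecut1 was lower at P5 than at E18.5 by -0.94 (adjusted p = 0.0089). For Prox1 the dimmer probes read -0.04 and 0.27 from E14.5 to E18.5 against 1.68 for the brightest, and 0.80 and 1.99 against 2.14 with processed signals. The probe that read 0.27 was not well above background on any E14.5 array, so its Cy5 level was at least 1.12-fold higher at E18.5. Neither dimmer Prox1 probe was lower at P56 than at P5 beyond the threshold (0.17 and -0.02).

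**Figure D3:**
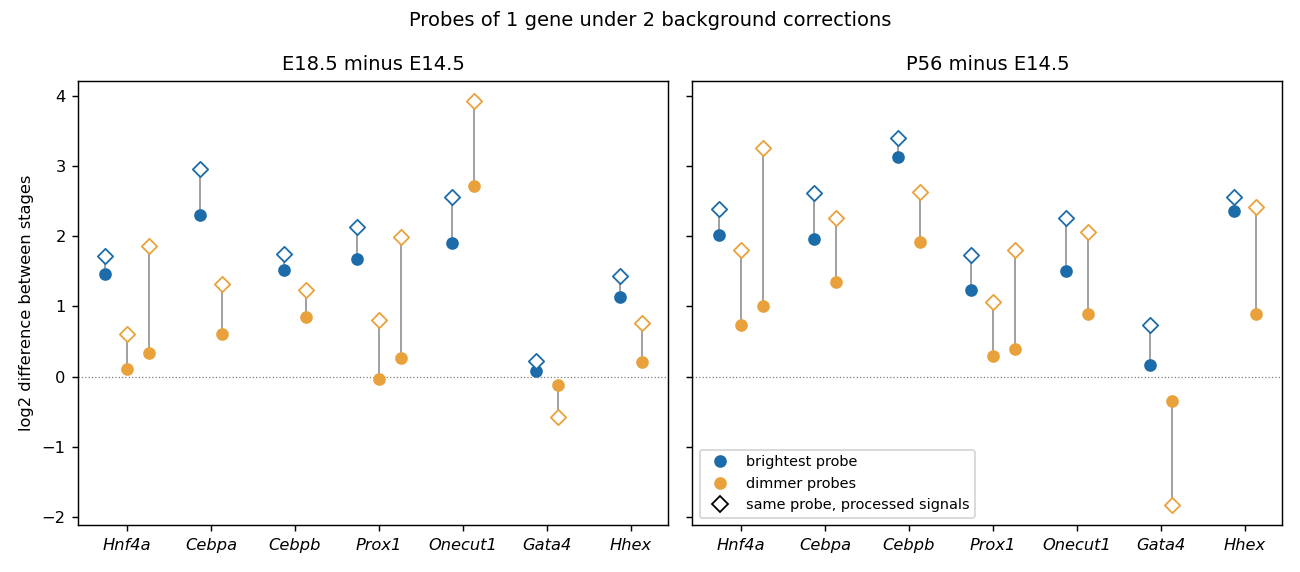
For the 7 factors with more than 1 probe, the log2 difference between 2 stages is plotted on the y axis for each probe, E18.5 minus E14.5 on the left and P56 minus E14.5 on the right. Circles are the main values (blue for the brightest probe, yellow for the others), diamonds the same probe with the scanner software's processed signals, and grey lines join them. Dimmer probes move most between the settings, such as the printed probe of Hnf4a from 0.34 to 1.87, and the Gata4 probes lie on opposite sides of 0.

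Paralogs were set against each other on each array, so that what moves a whole array cancels. From E14.5 to E18.5, Foxa1 minus Foxa2 went from 1.97 ± 0.102 to 0.54 ± 0.0755 (SD, n = 3 and 3), a change of -1.43. Over the same interval Foxa1 minus Foxa3 changed by -0.71 and Foxa2 minus Foxa3 by 0.73, so the Foxa2 probe rose by the most and the Foxa1 probe by the least. The single Foxa1 probe is dim. Dimmer probes of Hnf4a, Hhex, Cebpa, Cebpb and Prox1 read smaller rises before birth than their brightest probes, though that of Onecut1 did not. A smaller change of Foxa1 and a property of its probe cannot be told apart here. Cebpa minus Cebpb changed by 0.79 from E14.5 to E18.5, by -0.51 to P5 and by -1.45 to P56, from 0.40 ± 0.45 at P5 to -1.05 ± 0.277 at P56. The arrays of the 2 stages did not overlap in any of these 6 changes, and each had p = 0.1 in a two-sided exact permutation test, the smallest that 3 against 3 or 2 against 3 arrays allow (adjusted over 12 tests, p = 0.171). This test cannot go below 0.1 with these numbers of arrays. The signs of these changes were the same with the processed signals. The C/EBP values came from the brightest probe of each gene. By their dimmer probes Cebpa and Cebpb rose by 0.60 and 0.85 to E18.5, then by 0.25 and 0.31 to P5. To P56 they rose by 0.49 and 0.77. Before birth Cebpa thus rose less than Cebpb by the dimmer probes, the opposite order to the brightest ones. With processed signals the dimmer pair read 1.32 and 1.23 to E18.5.

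**Figure D4:**
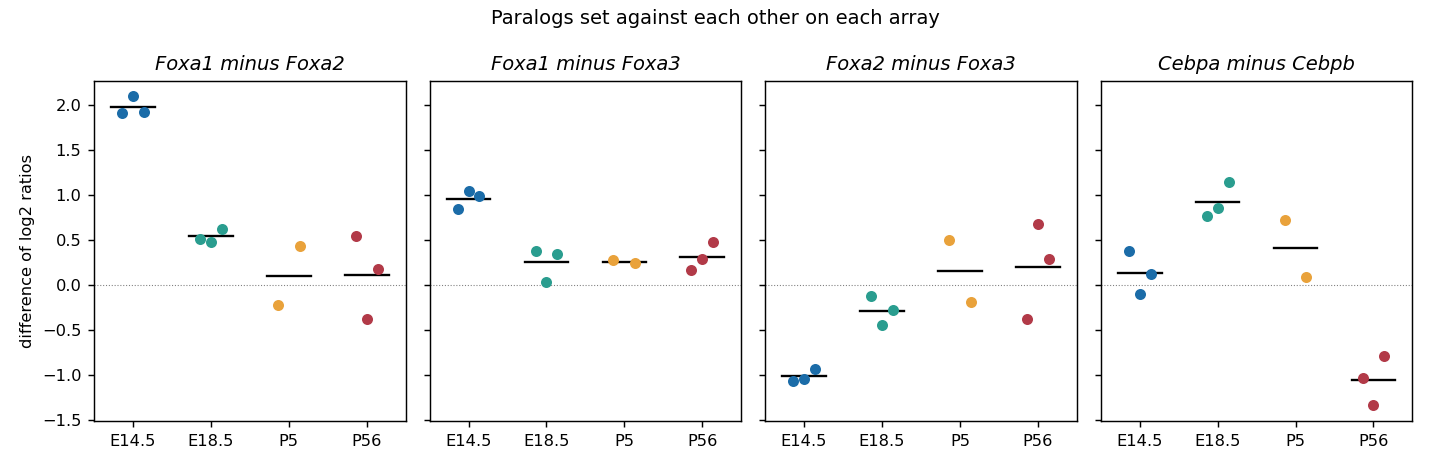
Each panel plots the difference of the log2 ratios of 2 paralogs on the y axis against stage on the x axis. Each gene was read by the probe that stood for it. Points are arrays, bars are stage means and the dotted line marks equal ratios to the reference. Foxa1 minus Foxa2 has a mean of 1.97 at E14.5 but 0.54 at E18.5, and Cebpa minus Cebpb drops from 0.40 at P5 to -1.05 at P56.

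As a description over the 11 arrays, which share 4 stages and 1 reference, the genes whose log2 ratios were most like those of a factor were listed by Pearson's r. For Cebpb these were Masp2 (a protease of the lectin pathway of complement), Mgst1 and Etnk2, with r of 0.996 to 0.998. For Hhex they were Tex2, Etnk2 and Cebpb, with 0.991 to 0.992. Cebpa was closest to Klkb1 (plasma prekallikrein), Crp and Fmo1 (0.994 to 0.995), and Hnf4a to 9130016M20Rik, Pcsk6 and Arg1, the arginase of the urea cycle (0.993 each). Foxa3 was closest to Aox3, Ankrd15 and Cmtm6 (0.983 to 0.989) and Prox1 to Pcx (pyruvate carboxylase), Acat1 and the complement gene C3 (0.987 to 0.988). Foxa2 was closest to 2 transcripts without a gene symbol and to Rapgef5 (0.986 to 0.989). The closest genes of Onecut1 (Olfr644, a transcript without a gene symbol and 1110008K04Rik, 0.979 to 0.981), Foxa1 (3110073H01Rik, a transcript without a gene symbol and Olfr1393, 0.93 to 0.945) and Gata4 (Olfr1344, Tnfsf15 and Olfr32, 0.906 to 0.929) included olfactory receptor genes. Between the factors themselves r ran from 0.499 (Onecut1 and Gata4) to 0.991 (Cebpb and Hhex).

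Other liver transcription factors, a list of 28 with 26 tested, were counted in the same way. From E14.5 to E18.5, 19 were higher, 1 was lower and 6 were not called, with a median difference of 0.82, beside 24.6% of all genes higher and 22.8% lower. The largest rises were those of Nr1h4, the bile acid receptor FXR (2.35), Klf15, a factor of fasting metabolism (2.26), and Zbtb20, a repressor of Afp (2.24), and the fall was that of Gata6 (-1.23). Gata6, the paralog of Gata4, had a mean log2 ratio of 1.01 at E14.5 and -0.22 at E18.5. Between E18.5 and P5, 6 were higher (7.32% of all genes) and none lower (6.4%) by limma, led by Nr0b2 (1.07), Nr1i3 (0.88) and Hlf (0.64). The rise of Nr1i3 lost the call in 4 of 26 alternatives and that of Hlf in 5 of 26, while that of Nr0b2 kept it in all. After P5, when 20.9% of all genes were higher and 24.7% lower, 8 were higher, led by the circadian factor Dbp (1.5), Nr1h4 (1.25) and Klf15 (1.12), and 4 were lower, led by the proliferation factor Foxm1 (-0.93), Onecut2 (-0.69) and Foxo1 (-0.63). The fall of Onecut2, the paralog of Onecut1, took it from -0.24 at P5 to -0.93 at P56. The falls of Onecut2 and Foxo1 each lost the call in 6 of 28 alternatives, among them leaving out P5 replicate 2 (-0.40 and -0.42), and were smallest at -0.10 in the authors' table for Onecut2 and at -0.31 as the mean over probes for Foxo1. Over the whole course Klf15 rose by 3.79, Nr1h4 by 3.65 and Zbtb20 by 2.89, and Gata6 and Foxm1 fell by 1.32 and 1.26.

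The known target genes of the factors were a list of 17, all tested. From E14.5 to E18.5, 15 were higher (24.6% of all genes) and none lower (22.8%) by limma, with a median of 1.93, led by Igfbp1 (6.16), Cps1, the first enzyme of the urea cycle (5.03), and Apoa1 (3.36). From E18.5 to P5, when no factor was called, 7 targets were higher and 2 lower (7.32% and 6.4% of all genes). Pck1, the control enzyme of gluconeogenesis, rose by 4.75 (SE 0.20, adjusted p = 2.9e-07, limma), Tat by 2.37 and Tdo2 by 1.66, while Alb (Alb1 on the array) fell by 1.03 and Cyp7a1 by 0.83. The fall of Alb1 lost the call in 5 of 26 alternatives (-0.37 in the Cy5 channel alone) and that of Cyp7a1 in 8 of 26 (-0.38 without P5 replicate 2). After P5, 8 targets were higher and 6 lower (20.9% and 24.7% of all genes). Cyp7a1, the first enzyme of bile acid synthesis, rose by 3.63, Apoc3 by 2.56 and Tdo2 by 2.39, and the fetal protein gene Afp fell by 5.46, Igfbp1 by 4.97 and Apob by 1.26. Over the whole course Cyp7a1 rose by 5.66, Apoc3 by 4.79 and Otc by 4.71, and Afp fell by 5.67.

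Markers of other cell types differed between stages and are given here beside the factors. Rises and falls are genes called by limma. Over all genes tested, 24.6% were called higher and 22.8% lower from E14.5 to E18.5. From P5 to P56 these shares were 20.9% and 24.7%. Erythroid markers (11 genes, mean log2 ratio 3.11 to 3.42 on the embryonic arrays, 2.51 and 3.12 at P5 and -0.21 to 0.09 at P56) were lower at P56 than at P5 in 11 of 11 genes. From E14.5 to E18.5, 3 of them were higher, 1 lower and 7 not called. Neutrophil and myeloid markers rose in 9 of 9 genes over that interval, with a mean log2 ratio between -0.22 and 0.11 on the E14.5 arrays and between 2.89 and 2.95 at E18.5. Macrophage markers rose in 8 of 8, with values between -3.2 and -2.8 and then between -1.61 and -1.3. After P5, neutrophil and myeloid markers fell in 9 of 9 genes by P56 (median -3.97). Macrophage markers fell in 5 of 8 over that later interval and rose in none (median -0.8). Cebpa and Cebpb are also expressed in myeloid cells, and Prox1 and Hhex in endothelial cells. Endothelial markers rose in 4 of 8 genes from E14.5 to E18.5 and fell in 7 of 8 after P5, biliary markers rose in 4 of 6 and fell in 2 of 6, and stellate and fibroblast markers rose in 2 and fell in 3 of 8 before birth and rose in 1 and fell in 5 of 8 after P5. Hepatoblast markers (Dlk1, Gpc3, Igf2 and H19) lay at 3.81 to 4.55 up to P5. They rose in 3 of 4 genes from E14.5 to E18.5 and fell in none (median 0.8). Hepatoblast markers then fell in 4 of 4 genes from P5 to P56, and 11 of 11 cell cycle genes fell after P5. The 7 hepatocyte markers did not keep rising after E18.5. From E18.5 to P5 none was higher and 4 were lower (median -0.74), beside 7.32% and 6.4% of all genes. From P5 to P56, 1 was higher and 3 were lower (median -0.66). At P56 against E18.5, 1 was higher and 6 were lower (median -1.87), beside 31.2% and 33.6% of all genes. The part of these cells in the values of the factors was not tested.

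**Figure D5:**
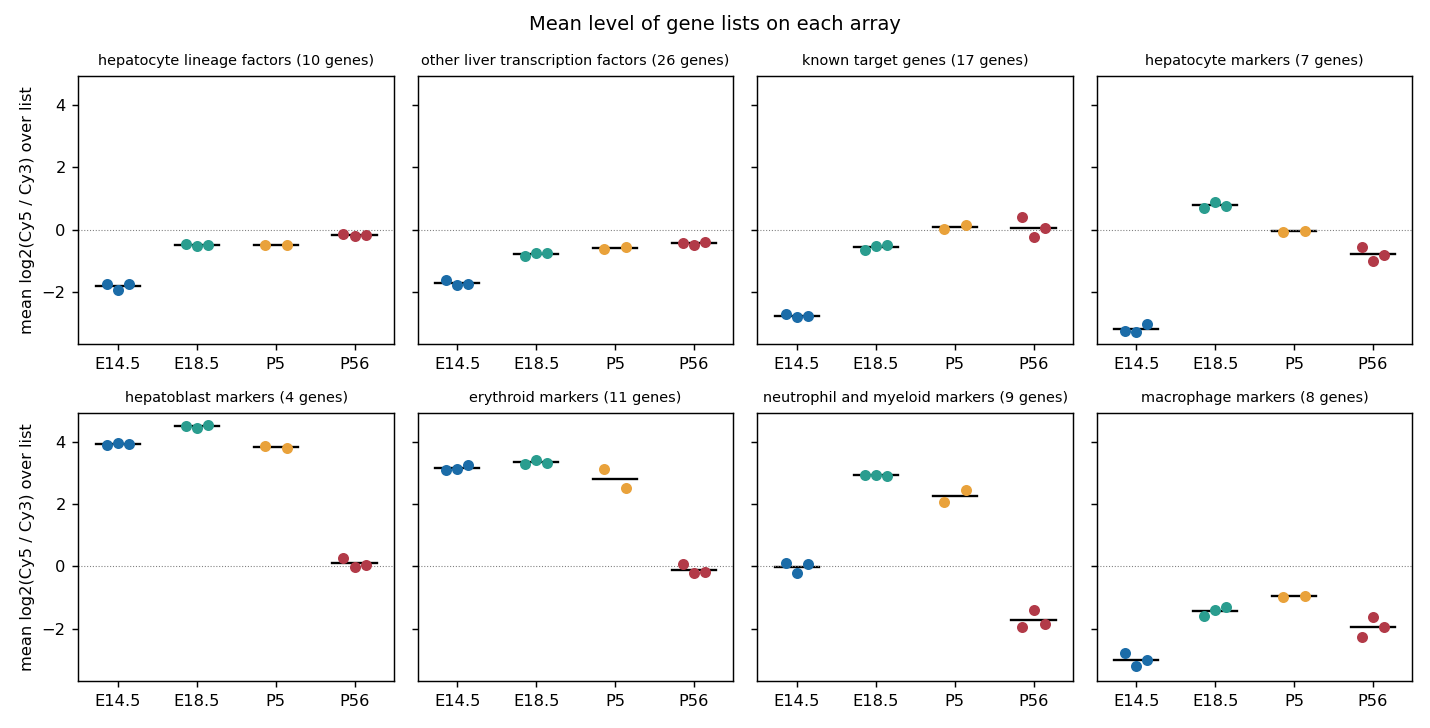
Each panel plots the mean log2(Cy5 liver / Cy3 reference) over the tested genes of 1 list on the y axis against stage on the x axis. Points are arrays, bars are stage means and the dotted line marks the adult reference. The 10 factors, the other liver factors and the targets rise from E14.5 to E18.5. The hepatoblast and erythroid lists lie above 2.5 until P5 and near 0 at P56, and the hepatocyte and myeloid lists peak at E18.5.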

How the data were processed

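Liver RNA of 4 stages was read on 11 Agilent 4x44k arrays. Per the labels the RNA was amplified before labelling. The authors deposited the intensity of every spot in both channels, with background and quality marks, from Feature Extraction 9.5.1.1, and a table of log2 ratios per gene, normalized with limma per the methods, used here as an alternative (r of 0.815 to 0.931 with the arrays, across genes).

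Mean signals were corrected for median background by normexp (offset 50), which compresses ratios of dim probes, and normalized by loess within arrays. Outlier spots were left out and spots of a probe averaged. Probes had to be marked well above background in Cy5 on every array of some stage, with no more than 1 value missing in any stage. A gene was read by its brightest such probe. Stages were compared with lmFit and eBayes (limma 3.58.1, R 4.3.3) in 1 fit of all 11 arrays. Adjusted p-values are Benjamini-Hochberg over 16702 genes, 263 of them with a missing value, and the threshold was 0.05. The fit was tested on simulated data in which 200 of 16702 genes changed. Of changes of 0.5 it called 34% for E18.5 against E14.5, and 0% for P5 against E18.5 and for P56 against P5. Of changes of 1 it called 87%, 86% and 81% in the same order. Far fewer genes changed there than were called on the arrays, so the adjustment was stricter than in the data. Figures used matplotlib 3.10.9 in Python 3.11.15.

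Members, lists and tests were chosen with earlier results of these data known. All probes of the 10 factors were described. Genes named from the lists of other factors and targets were up to 3 of the largest rises and falls past the threshold whose arrays did not overlap, in each successive interval and in P56 against E14.5. The other factors Nr2f1 and Zhx2 and the biliary marker Cldn4 were not tested. The detection of single erythroid markers is not reported here. Gene names are those of the array, and 121 list genes matched RefSeq by accession.

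Alternatives were other background corrections, normalizations, filters and probe rules, the Cy5 channel alone, the authors' table, blocks for replicate number or scan, leaving out single arrays, a t-test as in the methods, and a minimum change of 1.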

Additional observations from a re-analysis of the deposited data

How the results depend on the processing

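The 8 rises from E14.5 to E18.5 were called under every alternative run, except that Foxa3 (0.97) missed a minimum change of 1. The probe rules run were the brightest probe and the mean over probes, and none took a dimmer probe alone. Alone, a dimmer probe of Hhex read 0.21 (limma adjusted p = 0.13) and a dimmer probe of Hnf4a 0.11 (adjusted p = 0.53). A dimmer Prox1 probe read -0.04 (limma adjusted p = 0.86). None of these was called, while the other dimmer probes of the 8 factors were called higher. Counts of genes called moved by over 1.5 times as follows. With a minimum change of 1 they were 1852 (E18.5 against E14.5), 450 (P5 against E18.5), 2269 (P56 against P5), 3656 (P56 against E18.5), 4889 (P56 against E14.5) and 2470 (P5 against E14.5). The authors' table gave 4798, 292, 5040 and 4550 for E18.5 against E14.5, P5 against E18.5, P56 against P5 and P5 against E14.5. The methods' t-test gave 61 (P5 against E18.5), 298 (P56 against P5) and 4902 (P5 against E14.5), median centring gave 1474 (P5 against E18.5), and the scan as a fixed block gave 4672 (P56 against P5). Beside these stood 7908, 2292, 7615, 10816, 11838 and 8188 genes. The share of higher genes among those called was 51.9%, 53.4% and 50.7% for E18.5 against E14.5, P5 against E18.5 and P5 against E14.5, and 63.5%, 65.3% and 65.3% with the processed signals and 63.9%, 72.9% and 65.2% in the authors' table. With median centring it was 14.9% in place of 48.1% for P56 against E18.5 and 22.9% in place of 51.0% for P56 against E14.5. Factors called numbered 1 in place of 0 for P5 against E18.5 with median centring (Foxa2, 0.62) and as the mean over probes (Onecut1, -0.94), 0 in place of 4 for P56 against P5 in the t-test, and 2 with a minimum change of 1 for both P56 against P5 and P56 against E18.5. With median centring P56 against P5 turned to -0.35 for Hnf4a, -0.52 for Foxa2, -0.68 for Foxa3 and -0.79 for Cebpa, and P56 against E18.5 to -0.14 for Hnf4a and -0.65 for Foxa3, while the median of all genes was at -0.47 and -0.42. Prox1 in P56 against E18.5 was 0.01 as the mean over probes. Gata4 was -0.31 (P56 against E18.5) and -0.38 (P56 against E14.5) in the Cy5 channel alone and -0.99 and -1.47 in the authors' table. The cause was not tested. Leaving out single arrays gave 928 genes (without P5 replicate 3) to 3765 (without P5 replicate 2) for P5 against E18.5, with 0 to 1 factors, and 4741 (without P5 replicate 2) to 8212 (without P5 replicate 3) for P56 against P5. Samples with the same replicate number did not deviate together (r from -0.306 to 0.187), and with the replicate number as a block Foxa1 was added in P56 against E18.5 (0.29, adjusted p = 0.028 by limma, 6 factors called) and in P5 against E14.5 (0.37, adjusted p = 0.024, 9 factors called). When every array had to be well above background, 8 factors were left to test, without Foxa1 and Gata4. Signal near background limits Gata4, Foxa1 and the dimmer probes.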
